A study of Mus musculus with 6 samples.

Results

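The AP-1 transcription factor family was followed through 10 genes, chosen by name and not by their values: Fos, Fosb and Fosl2, Jun, Junb and Jund, Atf3, Batf, and the small Maf genes Maff and Mafk. They are 10 of the 43432 genes in the table of normalized counts, and 9 of them, all but Maff, were abundant enough to be tested. The data are bulk RNA-seq of splenic CD11b+ cells from 6 Rag1 KO mice on the C57BL/6J background, 3 mice per group, at day 8 after cell transfer. Rag1 KO hosts have no mature B or T cells of their own, and the mice of both groups received 2D2 CD4+ T cells, which carry a transgenic receptor for the myelin protein MOG, and B cells that had been grown in the iGB culture and loaded with MOG protein. In the WT iGB6 group the transferred B cells were wild type and had been transduced with a pMSCV-IRES2-eGFP retrovirus that carries Il6. In the IgHMOG iGBGFP group they were IgHMOG B cells transduced with an empty pMSCV vector. The B cells' genotype and their vector therefore differ together and cannot be told apart. The female of each group is replicate 1, and its males are replicates 2 and 3, while the ages of the mice were not stated. The sorted myeloid cells are not the cells that were transduced: Il6 itself stood at 2.37 to 3.56 normalized counts in WT iGB6 and 6.00 to 17.2 in IgHMOG iGBGFP, which does not check the labels. Libraries held 5955142 to 7564254 reads in WT iGB6 and 5196339 to 6611212 in IgHMOG iGBGFP, with 14816 to 16361 and 15893 to 17013 genes detected.

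AP-1 proteins are basic leucine zipper factors that bind DNA as pairs. Jun proteins can pair with themselves or with Fos proteins, Fos proteins need a partner, and Atf3 and Batf pair with Jun proteins in place of Fos. Fos, Fosb, Jun, Junb and Atf3 are immediate early genes, transcribed within minutes of a stimulus such as growth factors, cytokines, stress or tissue handling, while the small Mafs lack an activation domain and act through partners such as Nfe2, Nrf2 and Bach1.

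Every tested AP-1 gene was lower in CD11b+ cells of WT iGB6 mice than in those of IgHMOG iGBGFP mice, with log2 fold changes, here WT iGB6 over IgHMOG iGBGFP, of -2.50 (Fosb) to -0.51 (Batf), and 5 of the 9 fell: Fos, Fosb, Jun, Junb and Atf3. The other 4 tested genes, Fosl2, Jund, Mafk and Batf, were lower without passing. The test was limma on log2(normalized count + 1) with sex as a term. Its p-values were adjusted by the Benjamini-Hochberg method over all 9923 genes tested, with a threshold of 0.05. It called 334 genes, 3.37% of those tested, as lower and 6.12% in either direction. None of the 9 was called higher, none was higher at an unadjusted p under 0.05 and none was called higher by edgeR or DESeq2, while 2.75% of all genes tested were called higher. The groups did not overlap, with all 3 WT iGB6 libraries below all 3 IgHMOG iGBGFP libraries, for 7 of the 9 tested genes, against 11.4% of all genes tested. The median log2 fold change of the 9 genes was -1.47, beside 0.02 over all genes tested. Fosb is among the 9 only through its IgHMOG iGBGFP level, so these counts describe the tested genes and not all 10. These calls rest on the comparison within sexes. With the same fold changes and no sex term, 0 AP-1 genes passed with limma (adjusted p = 0.118 for Junb and 0.125 for Fos). That fit called 6 genes higher and 4 lower in the whole table.

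**Figure D1:**
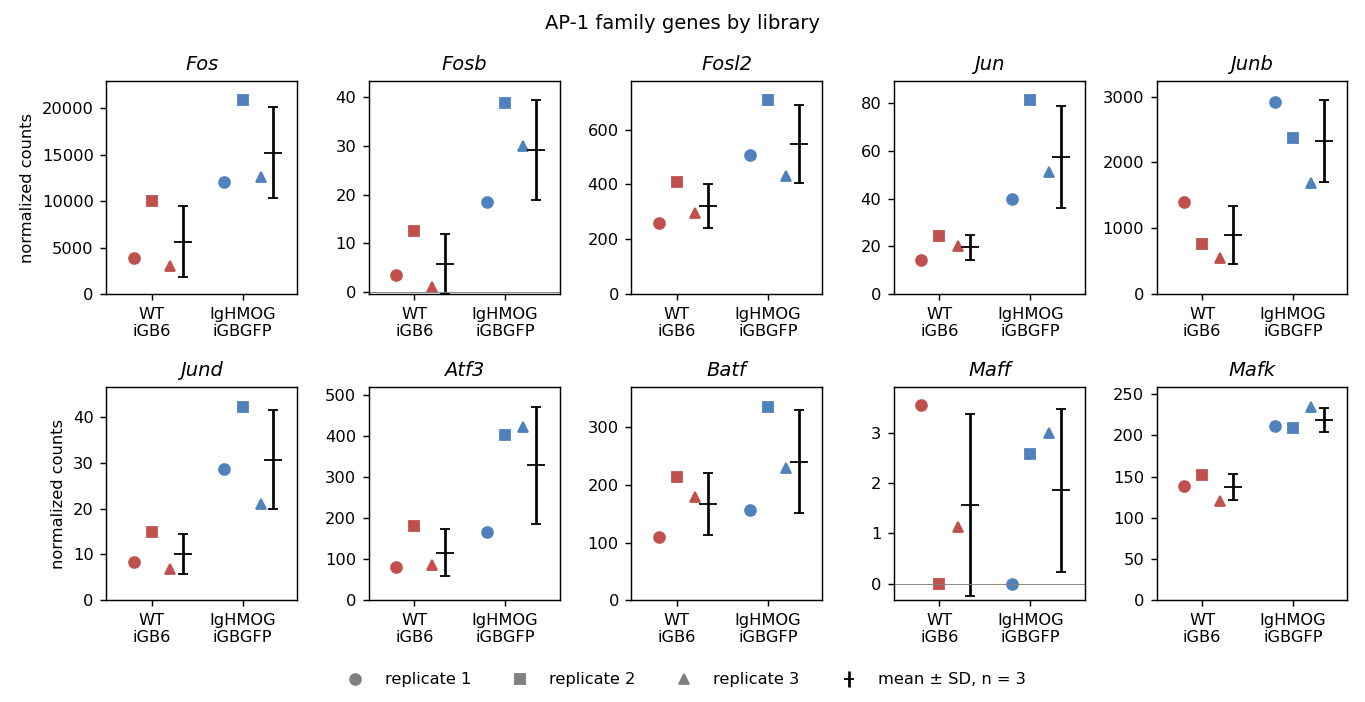
Normalized counts (vertical axes, linear, 1 scale per gene) of the 10 AP-1 family genes in each library of the WT iGB6 group (red) and the IgHMOG iGBGFP group (blue); symbols mark replicate numbers and bars give mean ± SD (n = 3). The groups do not overlap for Fos, Fosb, Fosl2, Jun, Junb, Jund and Mafk, they overlap for Atf3 and Batf, and Maff is at 3 reads or fewer in every library.

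The 150 bases before the RefSeq transcription starts of the 5 genes that fell are printed because these genes were lower together. Matches to TGACG, the core of cyclic AMP response elements, are in capitals, and each window is read 5′ to 3′ on the gene's own strand (either orientation of the motif counts).
Fos, GRCm38.p6 chr12:85473740-85473889, plus strand: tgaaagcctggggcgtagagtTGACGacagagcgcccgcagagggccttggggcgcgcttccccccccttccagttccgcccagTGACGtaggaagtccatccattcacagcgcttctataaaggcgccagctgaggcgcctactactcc
Fosb, GRCm38.p6 chr7:19310046-19310195, minus strand: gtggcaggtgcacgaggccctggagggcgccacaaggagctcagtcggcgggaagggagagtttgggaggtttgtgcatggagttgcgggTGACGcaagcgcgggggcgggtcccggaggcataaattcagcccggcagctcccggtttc
Jun, GRCm38.p6 chr4:95052223-95052372, minus strand: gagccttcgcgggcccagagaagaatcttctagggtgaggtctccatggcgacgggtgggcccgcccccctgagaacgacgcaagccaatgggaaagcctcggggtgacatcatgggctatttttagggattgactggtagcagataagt
Junb, GRCm38.p6 chr8:84978749-84978898, minus strand: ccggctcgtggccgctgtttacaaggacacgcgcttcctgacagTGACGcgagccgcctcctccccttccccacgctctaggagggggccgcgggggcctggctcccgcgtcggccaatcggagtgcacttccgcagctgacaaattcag
Atf3, GRCm38.p6 chr1:191183334-191183483, minus strand: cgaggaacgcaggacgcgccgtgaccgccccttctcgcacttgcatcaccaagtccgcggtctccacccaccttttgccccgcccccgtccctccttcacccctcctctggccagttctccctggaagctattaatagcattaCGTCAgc
All 10 members have an entry in the RefSeq promoter table of GRCm38.p6. The Jund entry starts at 70697739 on chromosome 8, upstream of the annotated Jund gene, which starts at 70698949. The Fos window held TGACG at 129 to 125 and at 66 to 62 bases before the start, the Fosb window at 60 to 56, the Junb window at 106 to 102, and the Atf3 window held the reverse complement, CGTCA, at 7 to 3. The Jun window held none. Among the genes that did not pass, Batf held it at 98 to 94 and Mafk at 41 to 37. The untested Maff, which has 3 starts, held it only before starts other than its first. So 7 of the 10 members had a match, or 6 when only the first start of each gene is taken. A match does not set the genes that fell apart. Of 32851 promoter windows of this length in the table, 13.3% held TGACG in either orientation. The full element TGACGTCA, which contains TGACG, occurred in 1.36% of windows and among the members only in that of a Maff start, at 29 to 22 bases before it. TGANTCA, a site that Fos and Jun pairs bind, was found in 4.24% of windows and in no member's window. A CArG box, the serum response factor site, was found in 0.92% and likewise in no member's window. Only full matches to each pattern were counted, and sites that differ from it by a base were not. These matches describe letters in a window and were not tested as sites of regulation.

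Fos, the immediate early partner of the Jun proteins, was the most abundant member by far. The Fos gene (ENSMUSG00000021250, GRCm38 chromosome 12, 85473890 to 85477273, plus strand, protein-coding) had 3915, 10007 and 3031 normalized counts in WT iGB6 replicates 1, 2 and 3, against 12106, 20830 and 12646 in IgHMOG iGBGFP replicates 1, 2 and 3. Replicate 2 was the highest library of both groups, and its WT iGB6 value lay just under the lowest IgHMOG iGBGFP value. Fos fell by 1.58 on the log2 scale (SE 0.38, 95% interval -2.43 to -0.73, adjusted p = 0.0409). Its group means were 5651 ± 3798 and 15194 ± 4888 normalized counts (SD, n = 3 per group). This call lies near the threshold, since edgeR gave an adjusted p of 0.0516 and the authors' deposited table, with a log2 fold change of -1.01, an adjusted p of 0.0997.

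Fosb, a close relative of Fos with the same partners, had the fewest reads of the tested members. The Fosb gene (chromosome 7, 19302696 to 19310051, minus strand) had 3.56, 12.6 and 1.12 normalized counts in WT iGB6 replicates 1 to 3, against 18.4, 38.8 and 30.0 in IgHMOG iGBGFP replicates 1 to 3. These are 3, 16 and 1 reads in WT iGB6 and 18, 45 and 30 reads in IgHMOG iGBGFP. The groups did not overlap, and the fall was 2.50 on the log2 scale (SE 0.64, adjusted p = 0.0470). Fosb passed the minimum of a mean of 10 normalized counts only through the IgHMOG iGBGFP libraries, so it could hardly have been tested without differing. Its call was lost with a pseudocount of 0.5 (adjusted p = 0.0530) and with TMM scaling (adjusted p = 0.0509). The size depended on the setting, with a log2 fold change of -1.48 at a pseudocount of 8, -1.37 in the authors' deposited table and -3.21 to -1.68 with 1 library left out.

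Fosl2, a Fos relative that responds more slowly and lacks the strong activation domain of Fos, differed less. It had 258, 410 and 297 normalized counts in WT iGB6 replicates 1 to 3, against 507, 706 and 430 in IgHMOG iGBGFP replicates 1 to 3. The highest WT iGB6 library was still under the lowest IgHMOG iGBGFP library, but the log2 fold change of -0.76 (SE 0.23, 95% interval -1.27 to -0.25) did not pass in limma (adjusted p = 0.0743). It did pass in the authors' deposited table (adjusted p = 0.0373), and DESeq2 called it too (adjusted p = 0.0310).

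Junb, the main Jun gene of these libraries and a weaker activator than Jun, had the firmest call of the family. The Junb gene (ENSMUSG00000052837, chromosome 8, 84974484 to 84978718, minus strand) had 1393, 759 and 544 normalized counts in WT iGB6 replicates 1 to 3, against 2918, 2367 and 1681 in IgHMOG iGBGFP replicates 1 to 3. In both groups the female, replicate 1, was highest and replicate 3 lowest, and the groups did not overlap. Junb fell by 1.44 on the log2 scale (SE 0.21, 95% interval -1.92 to -0.97, adjusted p = 0.0108). Its annotated exons share 7.52% of their bases with Prdx2 on the other strand, a gene at a mean of 469 normalized counts, and reads there could not be told apart if counting ignored strand.

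Jun, the founding AP-1 gene, was scarce. The Jun gene (chromosome 4, 95049034 to 95052222, minus strand) had 14.2, 24.5 and 20.2 normalized counts in WT iGB6 replicates 1 to 3, against 39.9, 81.1 and 51.0 in IgHMOG iGBGFP replicates 1 to 3. No library of WT iGB6 reached the lowest of IgHMOG iGBGFP, and Jun fell by 1.47 on the log2 scale (SE 0.31, adjusted p = 0.0283). Jund, which most cells express constitutively and which is not induced like the others, had 8.30, 15.0 and 6.75 normalized counts in WT iGB6 replicates 1 to 3, against 28.6, 42.3 and 21.0 in IgHMOG iGBGFP replicates 1 to 3. These groups did not overlap either, but with 6 to 19 reads per WT iGB6 library the log2 fold change of -1.54 (SE 0.43, 95% interval -2.50 to -0.58) did not pass (adjusted p = 0.0624). DESeq2 called Jund (adjusted p = 0.0465) and edgeR did not (adjusted p = 0.0602). Of the annotated Jund exon bases, 52.6% lie under exons of the antisense gene Gm11175, which is listed at 0 in all 6 libraries. Of the Jun exon bases, 7.28% lie under the antisense gene Junos. The absolute levels of both are uncertain where counting drops shared bases. Jun and Jund are single-exon genes in the annotation used, where Junb has 3 exon blocks, and DNA was not digested on the column. Reads summed over 1166 olfactory receptor genes were taken as a measure of DNA background. They came to 76.6 to 118 normalized counts in WT iGB6 and 78.0 to 144 in IgHMOG iGBGFP, ranges that overlap. The part of DNA background in the Jun, Junb and Jund values was not tested.

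Atf3, a stress-induced factor that pairs with Jun proteins and often represses, fell by 1.48 on the log2 scale (SE 0.29, 95% interval -2.12 to -0.84, adjusted p = 0.0220). The Atf3 gene (chromosome 1, 191170296 to 191218039, minus strand) had 81.8, 182 and 85.5 normalized counts in WT iGB6 replicates 1 to 3, against 166, 403 and 422 in IgHMOG iGBGFP replicates 1 to 3. The groups overlapped, since WT iGB6 replicate 2, a male, lay above the IgHMOG iGBGFP female, and within each sex the WT iGB6 libraries were all lower. Batf, which pairs with Jun proteins and recruits Irf4 or Irf8, had 109, 215 and 179 normalized counts in WT iGB6 replicates 1 to 3, against 158, 336 and 229 in IgHMOG iGBGFP replicates 1 to 3. The groups overlapped and Batf was not called (log2 fold change -0.51, SE 0.21, 95% interval -0.98 to -0.04, adjusted p = 0.172), with limma or in any of the 17 alternatives.

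Mafk had the smallest spread within groups relative to its mean. This small Maf had 139, 152 and 120 normalized counts in WT iGB6 replicates 1 to 3, against 212, 209 and 235 in IgHMOG iGBGFP replicates 1 to 3, with no overlap. Its log2 fold change of -0.67 (SE 0.20, 95% interval -1.11 to -0.24) did not pass (adjusted p = 0.0683), nor did it in any of the 17 alternatives. Maff, another small Maf that is induced by inflammatory signals, was at the limit of detection, with 3, 0 and 1 reads in WT iGB6 replicates 1 to 3, against 0, 3 and 3 in IgHMOG iGBGFP replicates 1 to 3. A count of 0 allows up to 3 reads, or 2.37 to 3.56 normalized counts depending on the library, for counting error alone, so no difference in Maff was detectable at this depth.

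**Figure D2:**
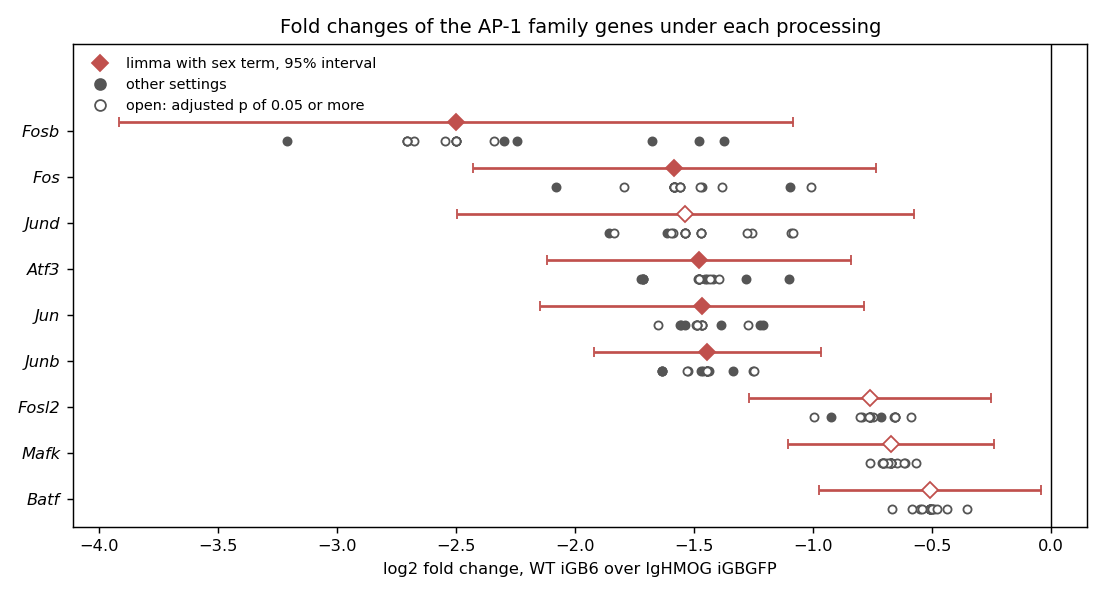
Log2 ratio of WT iGB6 to IgHMOG iGBGFP (horizontal axis) for the 9 tested AP-1 family genes, with limma's estimate and 95% interval as red diamonds and the 17 alternatives as circles beneath; filled symbols have an adjusted p under 0.05. Every estimate shown lies below 0, and Junb and Atf3 have filled circles in 14 of 17 alternatives each, some of which lie on top of one another.

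In bulk RNA, fewer cells of a type and less RNA per cell cannot be told apart. All 9 tested genes kept a negative log2 fold change in the 17 alternatives that gave a value for them, while their calls depended on single IgHMOG iGBGFP libraries. Without IgHMOG iGBGFP replicate 2, and likewise without replicate 3, 0 AP-1 genes passed, and Junb was at an adjusted p of 0.0938 and 0.0836. In the whole table limma then called 3 genes higher and 1 lower without replicate 2, and 12 higher and 14 lower without replicate 3. Among males alone, 2 against 2 libraries, Junb (log2 fold change -1.63, adjusted p = 0.0315) and Atf3 (-1.71, adjusted p = 0.0436) passed, and the calls of Fos, Fosb and Jun were lost, as they were without the female of either group. Without WT iGB6 replicate 2, the library of its group with the most reads and the highest Fos, 7 genes passed, Fosl2 and Jund in addition. The female pair alone, which allows no test, differed by -1.63 for Fos, -1.07 for Junb, -1.43 for Jun and -1.01 for Atf3 on the log2 scale.

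The balance between subunits was compared on normalized counts per kilobase of annotated exon, since raw levels of genes of different length cannot be set side by side. On that scale Fos stood at 2403 ± 1615 in WT iGB6 and 6460 ± 2078 in IgHMOG iGBGFP, and Junb at 391 ± 192 and 1009 ± 269 (SD, n = 3 per group). Batf was at 119 ± 38.2 in WT iGB6 and 171 ± 64.0 in IgHMOG iGBGFP, and Atf3 at 54.1 ± 26.5 and 153 ± 66.2, within their spread of each other in IgHMOG iGBGFP. Mafk was at 35.2 ± 4.12 in WT iGB6 and 56.0 ± 3.67 in IgHMOG iGBGFP, and Fosl2 at 33.3 ± 8.16 and 56.6 ± 14.7, within their spread of each other. Jun at 6.16 ± 1.61 in WT iGB6 and 18.0 ± 6.68 in IgHMOG iGBGFP, and Jund at 6.00 ± 2.63 and 18.4 ± 6.46, overlapped. Fosb, at 0.92 ± 0.97 in WT iGB6 and 4.66 ± 1.64 in IgHMOG iGBGFP, and Maff, at 0.60 ± 0.70 and 0.72 ± 0.63, were lowest.

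**Figure D3:**
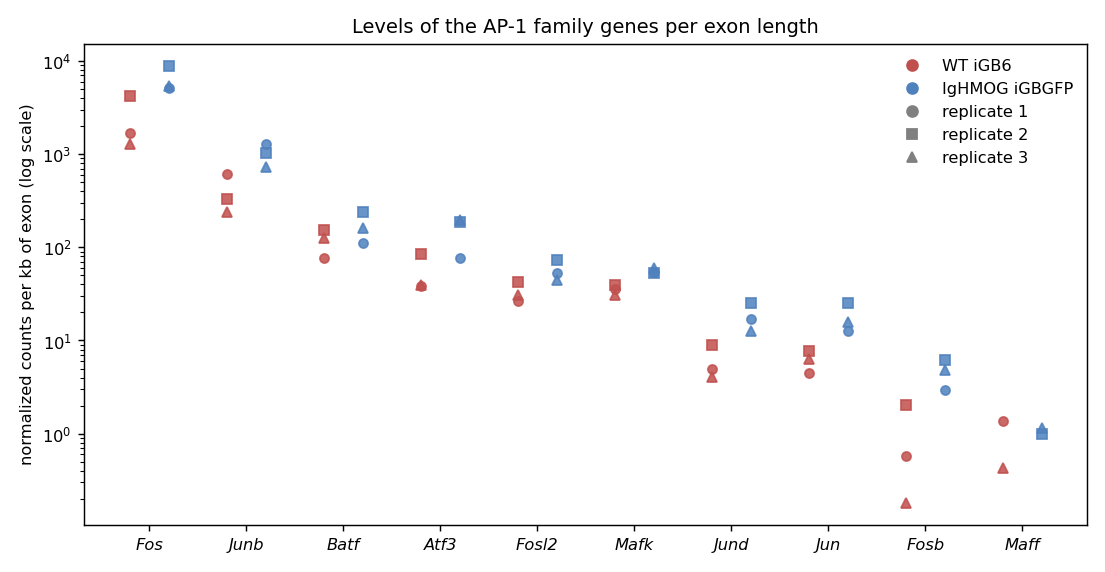
Normalized counts per kilobase of annotated exon (vertical axis, log scale) of the 10 AP-1 family genes in each WT iGB6 (red) and IgHMOG iGBGFP (blue) library, ordered by the IgHMOG iGBGFP mean; libraries at 0 (1 per group, Maff) cannot be drawn on a log axis. Fos and Junb lie above the other members in every library, and Jun and Jund lie at about the same level.

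Shares of each family's summed level per kilobase were compared next. Fos made up 98.4, 99.0 and 97.7% of the Fos, Fosb and Fosl2 level in WT iGB6 replicates 1 to 3, against 98.9, 99.1 and 99.1% in IgHMOG iGBGFP replicates 1 to 3. The means differed by -0.71 percentage points (two-sided exact permutation p = 0.2; 3 against 3 libraries cannot go below 0.1). Fosl2 accordingly held 1.63 ± 0.67% in WT iGB6 and 0.88 ± 0.11% in IgHMOG iGBGFP, with WT iGB6 replicate 2, at 0.99%, inside the IgHMOG iGBGFP range of 0.82 to 1.01%. Fosb, on few reads, held 0.0337, 0.0471 and 0.0137% in WT iGB6 replicates 1 to 3, against 0.0567, 0.0696 and 0.0885% in IgHMOG iGBGFP replicates 1 to 3. The Fosb shares did not overlap between the groups, a difference seen in the values and not tested. Junb made up 96.5 ± 1.74% of the Jun family level in WT iGB6 and 96.4 ± 1.22% in IgHMOG iGBGFP. Jund held 1.68 ± 0.89% in WT iGB6 and 1.78 ± 0.52% in IgHMOG iGBGFP (difference -0.09 percentage points, exact permutation p = 0.9), or 3.22 ± 1.69% and 3.40 ± 0.98% when exon bases shared with other genes were left out of the lengths. The log2 ratio of the Fos family to the Jun family was 2.50 ± 1.09 in WT iGB6 and 2.63 ± 0.55 in IgHMOG iGBGFP, a difference of -0.13 (exact permutation p = 1). That ratio ran from 1.46 in the female to 3.63 in male replicate 2 within WT iGB6, a range wider than the difference between the groups. Maff held 1.70 ± 1.88% of the Maff and Mafk level in WT iGB6 and 1.24 ± 1.07% in IgHMOG iGBGFP, on 7 or fewer reads per group. The direction of the Jund share, the Maff share and the ratio of Fos to Jun families turned when single libraries were left out. The Fos share did not turn. Its difference was -0.37 percentage points without WT iGB6 replicate 3, -1.02 without WT iGB6 replicate 2 and -2.72 without length scaling. Exact permutation tests of so few libraries cannot reach 0.05, so they could not decide whether the Fos share differed.

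Partner, upstream, target and marker genes were followed in 20 other lists, which together with the AP-1 genes hold 171 genes. Over all 9923 genes tested, 3.37% were called lower and 2.75% higher. In the 20 lists, 28 genes were called lower and 6 higher, or 1 lower and 1 higher without the sex term. Without IgHMOG iGBGFP replicate 2 these counts were 1 lower and 0 higher, and without IgHMOG iGBGFP replicate 3 they were 9 lower and 1 higher. Of 9 other AP-1 and Maf genes, 8 were tested and 0 passed in limma in either direction (median log2 fold change -0.07). Batf3 was lower at an unadjusted p under 0.05 and was the 1 gene called by edgeR and by DESeq2. Batf3, a dendritic cell factor, had 10.7, 26.8 and 7.87 normalized counts in WT iGB6 replicates 1 to 3, against 21.5, 66.4 and 68.0 in IgHMOG iGBGFP replicates 1 to 3. The groups overlapped, with a log2 fold change of -1.73 (adjusted p = 0.0538 in limma). It was singled out after its values were seen. The small Maf Mafg, the most abundant of these, was at 0.37 (SE 0.19, adjusted p = 0.262). Both Irf partners of Batf fell. Irf4 had 9.49, 15.8 and 6.75 normalized counts in WT iGB6 replicates 1 to 3, against 28.6, 59.5 and 151 in IgHMOG iGBGFP replicates 1 to 3. Its groups did not overlap (log2 fold change -2.55, adjusted p = 0.0215). Irf8 had 189, 181 and 162 normalized counts in WT iGB6 replicates 1 to 3, against 282, 387 and 582 in IgHMOG iGBGFP replicates 1 to 3, again without overlap (log2 fold change -1.17, adjusted p = 0.0267). Of 6 partners of the small Mafs, 4 were tested and 0 passed with limma, edgeR or DESeq2, with 1 lower at an unadjusted p under 0.05 and a median of -0.10. Among them Nfe2, a factor of megakaryocytes and erythroid cells and the most abundant, was at 0.24 (SE 0.19) and Nfe2l2, which encodes Nrf2, at -0.02 (SE 0.16).

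Of 18 genes of the MAP kinase cascades that lead to AP-1, all tested, 1 fell and 0 rose (median -0.28), a share near the 3.37% called lower over all genes. It was Map3k5, a stress-activated kinase upstream of JNK and p38, at 126 ± 39.1 normalized counts in WT iGB6 and 267 ± 66.1 in IgHMOG iGBGFP (log2 fold change -1.09, SE 0.25, adjusted p = 0.0339). Mapk14, the p38 alpha kinase and the most abundant of them, was at -0.51 (adjusted p = 0.0983). Of 12 transcription factors that act on Fos and Jun, 1 fell, Mef2a (-0.91, SE 0.22, adjusted p = 0.0425), beside 3.37% of all genes tested. The other 11 did not pass in limma. At an unadjusted p under 0.05, 5 of the 12 were lower, beside 12.3% of all genes tested. Of the 12, edgeR called 2 lower and DESeq2 called 3, beside 352 and 529 of all 9923 genes tested. The list's median was -0.47, and 10 of 12 were below 0, beside 4804 of all 9923 genes tested. Mrtfa, the coactivator of serum response factor, was at 0.19 (adjusted p = 0.562). Of 6 regulators of Jun protein, 0 passed with limma, edgeR or DESeq2, 1 was lower at an unadjusted p under 0.05, and the median was 0.20, with the corepressor Ncor1, the most abundant, at -0.26 (adjusted p = 0.374).

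Of 19 textbook AP-1 targets, 16 were tested, 6 fell, 1 rose and 9 did not pass, with a median log2 fold change of -0.61. Of all genes tested, 3.37% were called lower and 2.75% higher. The chemokine Ccl3 had 67.6, 135 and 144 normalized counts in WT iGB6 replicates 1 to 3, against 307, 1185 and 405 in IgHMOG iGBGFP replicates 1 to 3. The groups did not overlap (log2 fold change -2.26, adjusted p = 0.0108). Ccl4 (-2.15), the MAP kinase phosphatase Dusp1 (-2.20), the prostaglandin synthase Ptgs2 (-2.12), the cyclin Ccnd1 (-1.24) and the stress gene Gadd45b (-1.02) also fell. The Dusp1 call was lost in the authors' deposited table (log2 fold change -1.11, adjusted p = 0.0967) and under DESeq2 (adjusted p = 0.0818). Spp1, which encodes osteopontin, rose, with 529, 405 and 726 normalized counts in WT iGB6 replicates 1 to 3, against 118, 98.3 and 104 in IgHMOG iGBGFP replicates 1 to 3. All WT iGB6 libraries were higher (log2 fold change 2.33, adjusted p = 0.00157). The most abundant target, the matrix protease Mmp9, was at 0.12 (SE 0.22, adjusted p = 0.775), with overlapping groups. Of 10 targets of small Mafs and Nrf2, Fth1, the ferritin heavy chain, fell (-0.70, adjusted p = 0.0493) and Txnrd1, a thioredoxin reductase, rose (0.88, adjusted p = 0.0499). Both lie at the threshold: the Txnrd1 call was lost with edgeR (adjusted p = 0.0543), TMM scaling (0.0507), a pseudocount of 0.5 (0.0506) and a filter at a mean of 50 (0.0510), and the Fth1 call without a filter (0.0568). The other 8 did not pass (median -0.23), among them Ftl1, the most abundant, at -0.37 (adjusted p = 0.423).

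**Figure D4:**
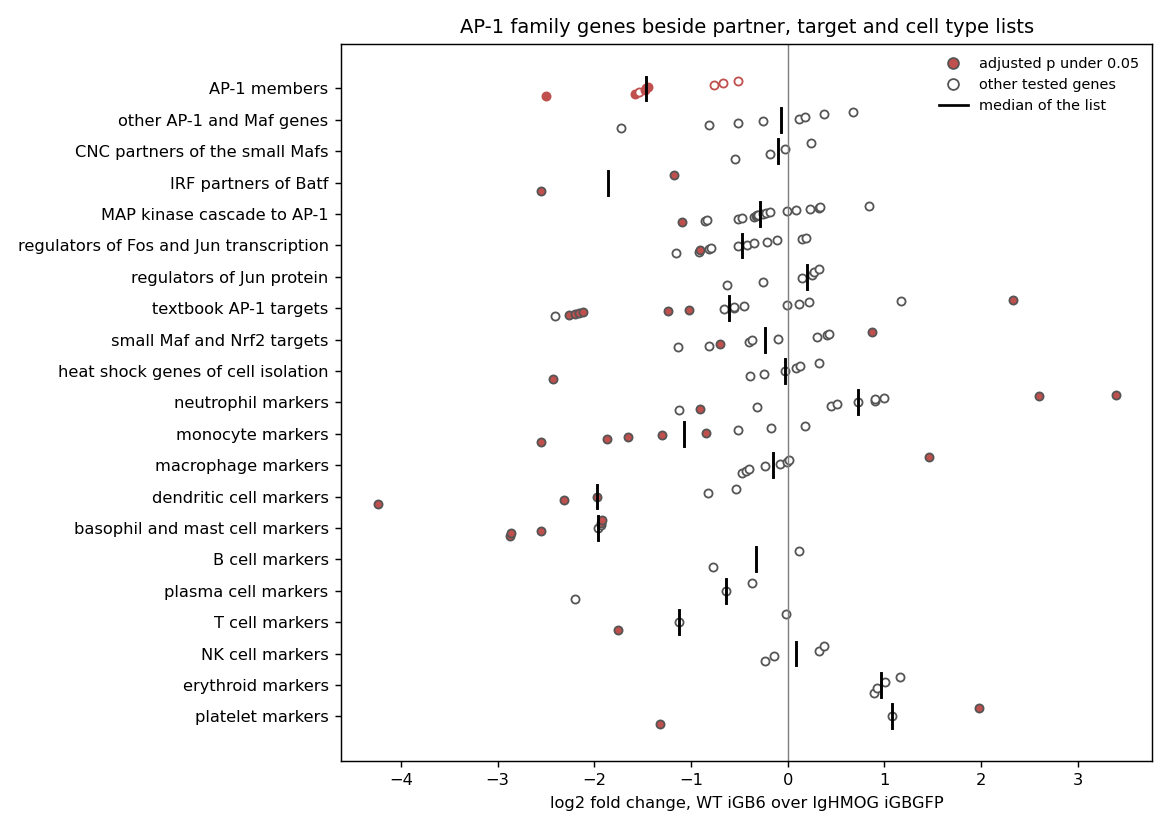
Log2 ratio of WT iGB6 to IgHMOG iGBGFP (horizontal axis) for each tested gene of the AP-1 family and of 20 other gene lists; filled circles have an adjusted p under 0.05 and vertical bars give each list's median. The AP-1 genes all lie below 0 with a median of -1.47, between the medians of the monocyte markers (-1.07) and of the basophil markers (-1.97).

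Markers of some cell types moved with the AP-1 genes, and their part in the result was not tested. The sorting marker was abundant in all libraries, with Itgam, which encodes CD11b, at 9561 to 12352 normalized counts in WT iGB6 and 6451 to 10606 in IgHMOG iGBGFP. Beside 3.37% of all genes tested called lower and 2.75% called higher, basophil and mast cell markers fell for 5 of 7 genes. Their summed level was 464 to 1691 normalized counts in WT iGB6 and 1838 to 7470 in IgHMOG iGBGFP. Log2 fold changes were -2.86 for Cd200r3, -1.92 for Ms4a2, -2.55 for Fcer1a and -2.87 for Gata2. Gata2, with a mean of 5.39 normalized counts in WT iGB6 and 48.3 in IgHMOG iGBGFP, was tested only through its IgHMOG iGBGFP level. The protease gene Prss34, the most abundant, was at -1.97 without passing (adjusted p = 0.126), and at -3.08 to -0.92 with 1 library left out. Dendritic cell markers fell for 3 of 5 tested genes of 8. Log2 fold changes were -4.24 for Cd209a, the most abundant, -2.31 for Dpp4 and -1.98 for Flt3. The list's summed level was 230 to 355 in WT iGB6 and 571 to 1584 in IgHMOG iGBGFP. Monocyte markers fell for 5 of 8, with sums of 10228 to 12428 in WT iGB6 and 12298 to 20815 in IgHMOG iGBGFP. Fn1 (-2.55), Ace (-1.65), Cx3cr1 (-1.87) and Ms4a4c (-0.85) were among them. So was Nr4a1 (-1.30, adjusted p = 0.0487 in limma), which is an immediate early gene like Fos. Ly6c2, the most abundant, was at 0.18 (adjusted p = 0.624). Of 11 neutrophil markers, the precursor genes Mpo and Elane rose (log2 fold changes 3.39 and 2.61) and Cxcr2, a receptor of mature neutrophils, fell (-0.90). The granule gene Ngp, the most abundant, was at 0.90 (adjusted p = 0.266). The list held 18.5 to 25.5% of all normalized counts in WT iGB6 and 11.1 to 22.6% in IgHMOG iGBGFP. The 10 AP-1 genes together held 0.0596 to 0.197% in WT iGB6 and 0.243 to 0.439% in IgHMOG iGBGFP. Of 8 macrophage markers, Cd5l rose (1.47) and 7 did not pass, Adgre1, the most abundant, among them (-0.43, adjusted p = 0.381). Their sums overlapped, at 2795 to 8868 normalized counts in WT iGB6 and 4687 to 6452 in IgHMOG iGBGFP.

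Among markers of other cells, 1 of 3 tested T cell genes fell (Lat, -1.75, which mast cells also use), and Cd3d, the most abundant, was at -0.02. The shares over all genes tested were 3.37% called lower and 2.75% called higher. Of the tested genes, 0 of 2 B cell, 0 of 3 plasma cell, 0 of 4 NK cell and 0 of 4 erythroid genes passed with limma, edgeR or DESeq2. At an unadjusted p under 0.05, 1 B cell gene and 1 plasma cell gene were lower and 4 erythroid genes were higher. The most abundant of each, Cd79b (-0.77), Xbp1 (-0.37), Gzma (-0.23) and Hbb-bs (1.01), did not pass. Of 3 platelet genes, Ppbp rose (1.98) and Itga2b, the most abundant, fell (-1.32), a call lost with a filter at a mean of 50 (adjusted p = 0.0501). No marker list had a gene at 0 in all libraries. Of the heat shock genes, known to respond to cell isolation, only Hspa1a passed among 7 tested (-2.43, adjusted p = 0.00716). Its near-identical copy Hspa1b makes that count uncertain. Hspa1b, too scarce to be tested, was also lower, with 0, 2 and 3 reads in WT iGB6 replicates 1 to 3. IgHMOG iGBGFP replicates 1 to 3 had 5, 22 and 7 reads of it. The median of the 7 tested genes was -0.03, with Hspa8, the most abundant, at 0.13 (adjusted p = 0.716).

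The genes whose profile over the 6 libraries was nearest to that of Fos, by the mean absolute difference of centred log2 levels, were the mitochondrial arginase Arg2 (0.11 log2 units), the histone gene Hist1h2bc (0.13) and the ubiquitin ligase Rnf149 (0.16). The 5219 genes compared have a mean of at least 100 normalized counts, and their median distance to Fos was 0.91. Arg2 had 403, 870 and 310 normalized counts in WT iGB6 replicates 1 to 3, against 1026, 1841 and 1217 in IgHMOG iGBGFP replicates 1 to 3, with replicate 2 highest in both groups, as for Fos. Nearest to Junb were Mirt2 (0.24 log2 units), Ifit3 (0.26) and Ifit3b (0.27), against a median of 0.80, the last pair being close copies whose counts are uncertain. Ifit3 had 807, 282 and 318 normalized counts in WT iGB6 replicates 1 to 3, against 1203, 1038 and 973 in IgHMOG iGBGFP replicates 1 to 3, with the female highest in both groups, as for Junb. Among the members, Jund (0.23) and Jun (0.29) were nearest to Fos, while Junb was 0.62 away from it, farther than all others but Maff.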

How the data were processed

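The builds GRCm38 and mm10 are named per the submitters' processing notes. Those notes list DESeq2 2.11.40.7, featureCounts 2.0.3 and STAR 2.7.10b, and also cutadapt 4.4 and FastQC 0.74, with no roles. Annotation and strand setting were not given in the sources used here. Expression was taken from a deposited signal table of normalized counts, whose file headers name featureCounts for each library. The authors divided reads by 1 size factor per library: dividing each column by its smallest value above 0 gave whole reads for 100% of values (tolerance 0.001). A second deposited table without a header holds the authors' DESeq2 comparison (log2 fold change in the WT iGB6 over IgHMOG iGBGFP direction, its standard error, Wald score, p-value and adjusted p-value; order read from the values; its name says that gender was accounted for). The labels' protocols describe amplification of low-input cDNA and no molecular identifiers, so counting limits cover counting error only.

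Symbols, coordinates (1-based) and exon lengths came from GENCODE M21 (GRCm38), matched for 42548 of 43432 genes. Genes were tested with limma 3.58.1 under R 4.3.3 (variance trend, two-sided) on log2(normalized count + 1), a scale that understates changes of low genes, with group and sex as terms, for genes with a mean of at least 10; the fit was tested on simulated data. A model with a sex by group interaction was also fitted. Alternatives were DESeq2 1.42.0 and edgeR 4.0.16 with its quasi-likelihood test, both on recovered reads (edgeR called 254 genes higher and 352 lower), other pseudocounts, filters and scalings, models without sex or with a replicate block, and leaving out each library. Single values were compared by exact permutation (scipy 1.17.1). SE is limma's moderated standard error. The members, the 20 other lists, the tests and the alternatives were chosen with earlier results of these data known. Genes named from a list are its called members with the smallest p, up to 4, and its most abundant member. Named too are the 3 profiles nearest to Fos and to Junb. Ptgs2, Ccnd1, Gadd45b, Nfe2l2, Nr4a1, Ighg1 and Batf3 were added after their values were seen. Labels give each library its own mouse.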

Additional observations from a re-analysis of the deposited data

How the results depend on the processing

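Counts of AP-1 genes called lower were 5 with limma, 3 with a filter at a mean of 50, 0 without the sex term, 2 with males alone and 0 to 7 when 1 library was left out, and 0 were called higher in each of the 17 alternatives. Junb and Atf3 were the 2 called with males alone. In the whole table, 273 genes higher and 334 lower became 459 and 620 without a filter, 6 and 4 without the sex term, 422 and 529 with DESeq2, 62 and 72 with males alone, and 410 higher in the authors' deposited table. They were 3 to 410 higher and 1 to 673 lower when 1 library was left out. In the partner, target and marker lists together, 28 lower and 6 higher became 1 and 1 without the sex term, 11 and 2 with males alone, and 1 to 40 lower and 0 to 8 higher when 1 library was left out. The labels do not say whether replicate numbers pair the samples, although mouse numbers lie close together within a replicate number. Deviations from the group means of libraries with the same number correlated at 0.48, 0.35 and 0.04 across genes, for replicates 1, 2 and 3. For replicates 1 and 2 these were above each correlation between libraries of different numbers, which ran from -0.51 to 0.29. WT iGB6 replicate 3 correlated more with IgHMOG iGBGFP replicate 1 (0.09). These values do not settle the pairing. A replicate block gave 435 genes higher and 566 lower, with 7 AP-1 genes lower. The difference in Jund share was 0.12 percentage points with males alone and -0.55 to 0.34 with 1 library left out, that in Maff share -1.16 with males alone and -0.54 to 1.31, and that in the log2 ratio of Fos to Jun families 0.0826 with males alone and -0.69 to 0.40. Of the other genes that the rule names, log2 fold changes near 0 turned for Hspa8 (-0.0047 with males alone, -0.0047 to 0.22 with 1 library left out), Ly6c2 (-0.0029 to 0.34), Cd3d (0.42 with males alone, -0.26 to 0.42) and Gzma (0.21 with edgeR, 0.21 with DESeq2, 0.14 in the authors' deposited table, -1.23 to 0.74 with 1 library left out). The sex by group interaction was called for 0 AP-1 genes in limma, with 0 at an unadjusted p under 0.05, and rests on 1 female per group; edgeR and DESeq2 were not run for it. Where a leave-one-out fit leaves 1 female, her library is taken up by the sex term. Causes of these changes were not tested. Depth limits Maff, Fosb, Jund and Jun, with 0 to 94 reads per library.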
